A study of Mus musculus with 12 samples.

Results

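Transcript levels of haematopoietic stem and progenitor cells carrying the R878H change in 1 allele of Dnmt3a were compared with those of wild-type cells, both from mice given metformin for 1 month. The comparison took the 3 libraries of mutant cells under metformin (RH MET) and the 3 of wild-type cells under metformin (WT MET), 6 of the 12 libraries in the series, and ran over all genes. The other 6 libraries were the matching vehicle groups (RH VEH and WT VEH, 3 each). Mutant mice were Dnmt3afl-R878H/+ and wild-type mice Dnmt3a+/+, on a C57BL/6 background, and mice of either genotype had been crossed to Mx1-cre, a transgene that drives Cre recombinase from an interferon-inducible promoter, so the controls carried it too. Lineage-negative, cKit-positive (Lin-ckit+) cells were sorted from fresh bone marrow of an in vivo competition experiment and were not cultured. The sources used here do not say whether sorting separated mutant or wild-type cells from competitor or host cells. Each treatment group had 2 animals per the labels, with no library assigned to either, so a p-value here reflects spread among libraries that may be purely technical. The labels give no age or sex, and R878H is a point change that gene counts do not check.

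Dnmt3a adds methyl groups to unmethylated DNA, and heterozygous changes at the human counterpart of this residue are frequent in clonal haematopoiesis and acute myeloid leukaemia. Metformin is a biguanide that inhibits respiratory complex I, the entry point of electrons from NADH into the respiratory chain. Lineage-negative cKit+ marrow holds stem cells and progenitors of the myeloid, erythroid and megakaryocyte lineages. The comparison answers how mutant progenitors differ from wild-type ones while both are exposed to the drug.

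The 6 libraries held 13487326 to 21938003 counts. WT MET 2 stood apart. Genes of the mitochondrial genome took 33.3% of its counts against 2.26% to 4.32% in the other 5, and it lay at 89.46 on the first principal component (49.9% of the variance), where the others lay between −24.86 and −2.37. Fold changes and list medians are therefore given with and without WT MET 2. Of the vehicle libraries, RH VEH 2 stood apart in the same measure. Mitochondrial genes took 40.8% of its counts against 1.57% to 3.85% in the other 5. Vehicle values are therefore given with and without RH VEH 2 unless marked as including it. They are not given for every list and gene. Libraries are also split by round. Round 1 holds the 6 of the 12 libraries that recur in a smaller deposited table (here RH MET 1 and 2 and WT MET 1), and round 2 the other 6 (RH MET 3 and WT MET 2 and 3). All 7 markers of the sorted compartment were detected, with Kit at 127 to 174 CPM (counts scaled to library size) in the 6 libraries and the progenitor peroxidase gene Mpo at 538 to 1801 CPM.

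Across 15003 genes tested, 1 gene passed the threshold, an adjusted p under 0.05 in the edgeR quasi-likelihood test (0.00667% of genes). It was Slc15a2, which encodes a proton-coupled oligopeptide transporter of the plasma membrane. Slc15a2 (ENSMUSG00000022899, chromosome 16, 36750177 to 36784962, minus strand, mm10) held 77, 125 and 321 counts in RH MET 1, 2 and 3, or 3.82, 6.74 and 12.9 CPM. In WT MET 1, 2 and 3 it held 0, 0 and 3 counts, so the groups did not overlap. Slc15a2 rose by a fitted log2 fold change of 7.0 ± 0.824 (SE, n = 3 per group; edgeR quasi-likelihood adjusted p = 0.0255). That fit rests on 3 wild-type counts and so on the prior count added to them. The ratio of summed counts per library size was 125, with an exact 95% interval of 42.4 to 606 that covers counting error only. The call depended on the libraries in the fit. Without WT MET 2 the log2 fold change was 6.60 ± 0.922 and edgeR gave an adjusted p of 0.247. A fit of the 5 other metformin libraries alone gave 0.00052, DESeq2 without that library 1.72e-06 and limma voom without it 0.0751. With all libraries, DESeq2 gave 3.34e-08 and limma voom 0.0059. In the fits that each left out 1 of the 12 libraries, the call was lost on leaving out any of WT VEH 1, 2 and 3, WT MET 1, 2 and 3, RH MET 2 and RH MET 3, with a log2 fold change of 6.60 to 10.11 throughout. The genotypes also stood apart without drug. Slc15a2 held 161, 36 and 339 counts in RH VEH 1, 2 and 3 against 3, 10 and 12 in WT VEH 1, 2 and 3, a fitted log2 difference of 4.32, and 4.68 without RH VEH 2. The other tested transporters of the family, Slc15a3 and Slc15a4, which sit in endosomes and lysosomes, did not pass. Slc15a3 stood at 2.64 to 4.27 CPM in RH MET and 0.609 to 2.90 CPM in WT MET, with log2 fold changes of 1.08 and, without WT MET 2, 0.69. Slc15a4 stood at 24.8 to 26.4 and 24.6 to 27.7 CPM.

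No other gene passed in this edgeR fit, so every further difference is given as values, not as a called change. At an unadjusted p under 0.05, 328 genes (2.19%) were higher and 539 (3.59%) lower in RH MET. All 3 RH MET libraries lay above all 3 WT MET libraries for 1196 genes (7.97%) and below them for 1341 (8.94%). The median log2 fold change over all genes was −0.02. Without WT MET 2, edgeR called 0 of 15409 genes (0%), and an unadjusted p under 0.05 was found for 170 higher (1.1%) and 290 lower (1.88%). With that library out, all 3 RH MET libraries lay above both other WT MET libraries for 1692 genes (11.3%) and below them for 1979 (13.2%). By other tools and all 12 libraries, DESeq2 called 22 higher and 39 lower, and limma voom with quality weights, which gives less weight to libraries that deviate, called 290 higher (1.93%) and 484 lower (3.23%). When WT MET 2 was left out, limma voom called 0 and 4 and DESeq2 18 and 13. A fit of the 5 remaining metformin libraries alone, with a term for the round, called 43 higher (0.293%) and 92 lower (0.628%). These last 3 fits were chosen after seeing the data.

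Most immediate early genes were lower in RH MET. Such genes are transcribed within minutes of a stimulus and need no new protein. They encode transcription factors such as AP-1 (dimers of Fos and Jun proteins), the EGR and NR4A factors, and inhibitors that shut the response off. Their promoters are known for cAMP response elements and serum response elements, and the NF-kB inhibitor Nfkbia is a feedback target of NF-kB itself. Stretches of 150 bases upstream of the start of Junb, Nr4a1 and Nfkbia are shown because these genes had small p-values here and carry such motifs close to the start. They are from RefSeq (build GRCm38.p6), were chosen after the values were seen, and run 5′ to 3′ on the strand of the gene. Capitals mark the core of the cAMP response element, TGACG or its reverse complement CGTCA, in Junb (chr8:84978749-84978898, minus strand) and Nr4a1 (chr15:101266696-101266845, plus strand), and an NF-kB site in Nfkbia (chr12:55492648-55492797, minus strand).
Junb: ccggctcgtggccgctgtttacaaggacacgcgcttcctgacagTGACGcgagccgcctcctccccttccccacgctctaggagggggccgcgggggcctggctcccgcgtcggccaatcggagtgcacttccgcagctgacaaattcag
Nr4a1: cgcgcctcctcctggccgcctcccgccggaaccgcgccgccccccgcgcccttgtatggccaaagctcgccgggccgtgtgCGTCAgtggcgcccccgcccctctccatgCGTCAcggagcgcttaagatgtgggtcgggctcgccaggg
Nfkbia: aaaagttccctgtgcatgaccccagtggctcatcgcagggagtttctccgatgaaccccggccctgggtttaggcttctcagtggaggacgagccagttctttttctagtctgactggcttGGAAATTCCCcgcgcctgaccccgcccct
Junb holds 1 core and Nr4a1 holds 2, and Nfkbia holds 1 NF-kB site. Of 47 immediate early genes with a RefSeq window, 57.45% held TGACG on either strand in the 250 bases upstream, against 30.04% of 10397 gene symbols tested and with a window. That count includes the full element TGACGTCA, held by 8.511% and 3.001%. An NF-kB site was held by 19.15% and 10.45%, a CArG box (the core of the serum response element) by 6.383% and 1.395%, and the AP-1 site TGANTCA by 4.255% and 5.492%. Within the immediate early genes, the median log2 fold change was −0.57 for those with TGACG and −0.58 for those without, a description of 27 and 20 genes with no test.

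Ier2, which encodes a short-lived nuclear regulator, stood at 314, 315 and 305 CPM in RH MET 1, 2 and 3 and at 659, 680 and 421 CPM in WT MET 1, 2 and 3. The mutant libraries lay close together and below all 3 wild-type ones. The log2 fold change was −0.96 ± 0.198 (SE, n = 3 per group; edgeR quasi-likelihood adjusted p = 0.738), and −0.80 ± 0.188 without WT MET 2. For Ier2 with all libraries, DESeq2 gave an adjusted p of 0.0064 and limma voom 0.0032, and edgeR without WT MET 2 gave 0.997. Junb, an AP-1 subunit, stood at 339, 304 and 301 CPM in RH MET and at 590, 554 and 423 CPM in WT MET, again with no overlap. Its log2 fold change was −0.75 ± 0.160, and −0.69 ± 0.171 without WT MET 2. Nr4a1, an orphan nuclear receptor, stood at 81.7, 76.6 and 68.9 CPM against 196, 160 and 95.5 CPM, a log2 fold change of −1.12 ± 0.260, and −0.95 without WT MET 2. Klf2, a zinc finger factor of quiescent lymphocytes and endothelium, stood at 441, 472 and 447 CPM against 746, 809 and 541 CPM, a log2 fold change of −0.62 ± 0.177, and −0.50 without WT MET 2. In each of these genes WT MET 3 was the wild-type library nearest to the mutant ones. Under vehicle the differences were −0.04 for Ier2, −0.18 for Junb and −0.72 for Nr4a1. Without RH VEH 2 they were −0.17, −0.16 and −0.48. Klf2 was at 0.12 under vehicle with RH VEH 2 included.

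The AP-1 list had 15 tested members, 13 lower and 2 higher in RH MET, with a median log2 fold change of −0.57, and −0.44 without WT MET 2. Of these, 5 had an unadjusted p under 0.05, all lower, and 3 did not overlap between the groups. Without WT MET 2 there were 2 with such a p and 3 without overlap. Of all genes, 3.59% were lower at such a p and 8.94% lay below WT MET in all libraries. Without WT MET 2 these shares were 1.88% and 13.2%. They are the shares to set beside the counts of lower genes in the lists that follow. Jun stood at 1316 to 1525 CPM in RH MET and 1778 to 2319 CPM in WT MET, a log2 fold change of −0.54 ± 0.169, and −0.47 without WT MET 2. Jund, at −1.43 ± 0.654, and −0.80 ± 0.546 without WT MET 2, overlapped between the groups (180 to 346 CPM against 274 to 1113 CPM), and its highest value was in WT MET 2. Fos, the founding member, was nearly level, at 849 to 1241 CPM against 933 to 1402 CPM and a log2 fold change of −0.09 ± 0.186, and −0.11 without WT MET 2. Whether Fos differed from the Jun genes was not tested.

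Of the 9 EGR and NR4A genes with their Nab corepressors, 8 were lower and 6 had an unadjusted p under 0.05. Their median was −1.12, and −0.75 without WT MET 2. Egr1, a zinc finger factor induced by growth factor signalling, stood at 495, 436 and 315 CPM in RH MET and 902, 806 and 468 CPM in WT MET, a log2 fold change of −0.90 ± 0.278, and −0.75 without WT MET 2. Of the 9, Nr4a1 was the 1 gene without overlap, where 8.94% of all genes lay below WT MET in all libraries. Egr1 in RH MET 1 exceeded WT MET 3, but within round 1 WT MET 1 was above both mutant libraries and within round 2 both WT MET libraries were above RH MET 3. The list medians by round were −0.94 in round 1 and −0.86 in round 2, and for AP-1 −0.51 and −0.62. Under vehicle the median was −0.25 with 6 of 9 lower, and for AP-1 −0.15 with 10 of 15 lower. Without RH VEH 2 these medians were −0.31 and −0.16, again with 6 and 10 lower.

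The IER and KLF genes and the feedback inhibitors of the response formed the widest of these lists, with 34 tested members. Of these, 29 were lower, 15 had an unadjusted p under 0.05 and 13 lay below WT MET in all libraries. The median was −0.50, and −0.37 without WT MET 2, when 32 of 34 were lower and 16 did not overlap. Ppp1r15a, the GADD34 subunit that directs dephosphorylation of eIF2α, overlapped at 205 to 318 CPM against 312 to 489 CPM (−0.85 ± 0.204, and −0.63 without WT MET 2). Spry2, an inhibitor of receptor tyrosine kinase signalling, was at 10.5 to 12.8 CPM against 14.8 to 19.6 CPM (−0.65 ± 0.188, and −0.58 without WT MET 2). Gadd45b, a stress sensor upstream of p38 and JNK, was at 6.64 to 8.82 CPM against 9.45 to 16.4 CPM (−0.80 ± 0.274, and −0.65 without WT MET 2). The phosphatase gene Dusp5, which inactivates ERK, overlapped at 27.7 to 43.0 CPM against 38.2 to 88.8 CPM (−0.71 ± 0.223, and −0.83 without WT MET 2). Under vehicle, with RH VEH 2 included, the differences were −0.07 for Ppp1r15a, −0.39 for Spry2, −0.19 for Gadd45b and −0.60 for Dusp5. The scores of this list, the median over its members of each gene's log2(CPM + 0.5) less its mean over the 6 libraries, were −0.16, −0.07 and −0.32 in RH MET and 0.46, 0.21 and −0.04 in WT MET. Under vehicle the list median was −0.08, and −0.15 without RH VEH 2, with 22 of 34 lower in either case.

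Of 29 NF-kB subunits, inhibitors and targets, 23 were lower, with a median of −0.30 with and without WT MET 2. At an unadjusted p under 0.05 there were 8, all lower, and 4 without that library. Of the 29, 2 lay below WT MET in all libraries and 3 above. Of all genes 8.94% and 7.97% did so. Under vehicle the median was −0.33 with 23 of 29 lower, and −0.25 with 21 lower without RH VEH 2. Nfkbia, the inhibitor that holds NF-kB in the cytoplasm, stood at 285, 204 and 115 CPM in RH MET and 519, 271 and 186 CPM in WT MET, a log2 fold change of −0.95 ± 0.202, and −0.88 without WT MET 2. Its groups overlapped across rounds but not within them. Traf1, an adaptor of TNF receptors, did not overlap, at 1.56 to 3.38 CPM against 4.35 to 9.43 CPM (−1.29 ± 0.353, and −1.02 without WT MET 2). Il1b and Cxcl2 went the other way, also without overlap. Il1b was at 13.7 to 23.6 CPM against 5.99 to 12.2 CPM (0.98 ± 0.452, and 0.71 without WT MET 2). Cxcl2 was at 17.5 to 28.8 CPM against 10.7 to 16.4 CPM (0.75 ± 0.402, and 0.54 without WT MET 2). Tnfaip3, the A20 ubiquitin editor that ends NF-kB signalling, was at 193 to 490 CPM against 285 to 626 CPM (−0.54 ± 0.241, and −0.45 without WT MET 2).

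**Figure D1:**
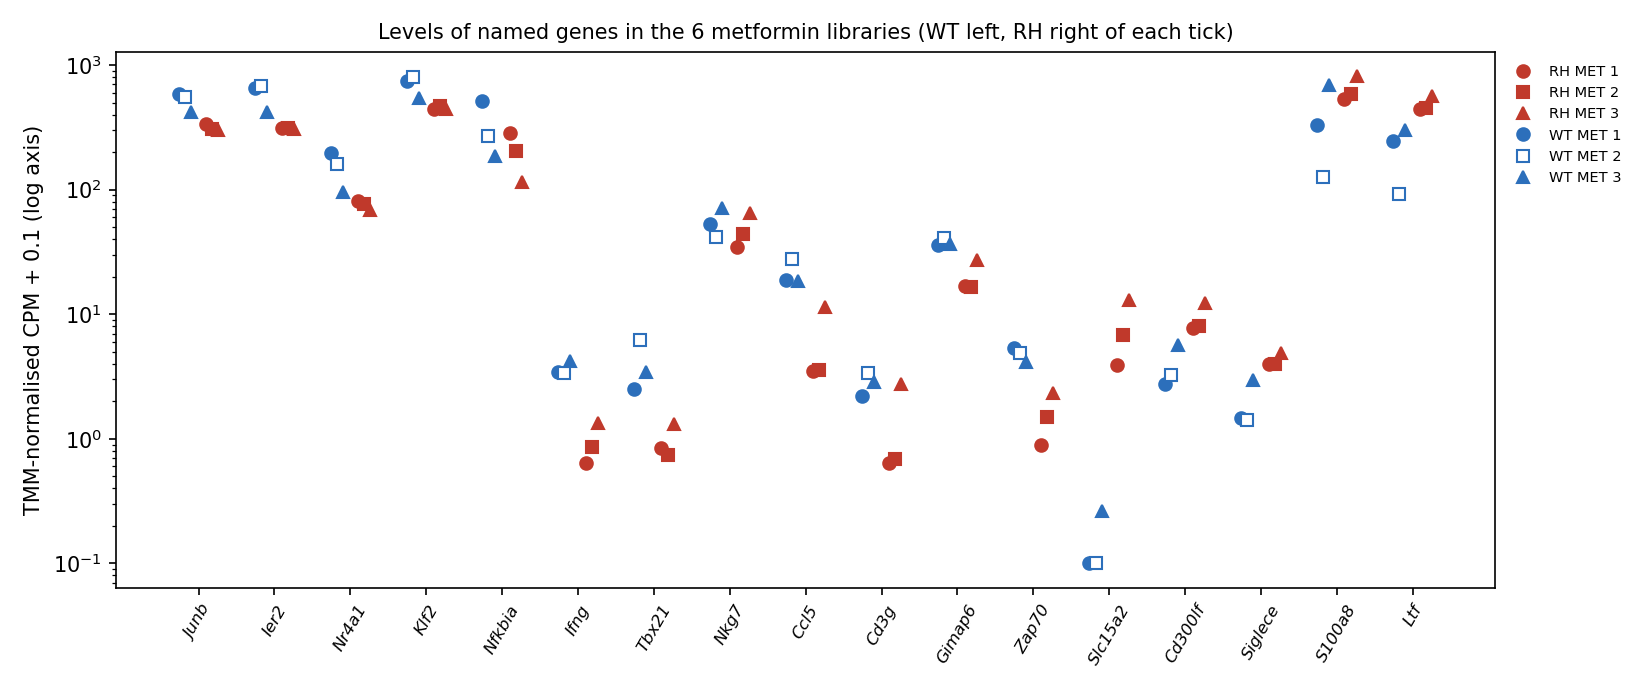
Levels of named genes in the 6 metformin libraries as TMM-normalised CPM + 0.1 on a log axis; each point is 1 library, WT MET (blue) left and RH MET (red) right of the tick, with WT MET 2 as an open square. Junb, Ier2, Nr4a1, Klf2, Ifng, Tbx21, Ccl5, Gimap6 and Zap70 lie lower in all RH MET libraries, and Slc15a2, Cd300lf, Siglece and Ltf higher, while Nfkbia, Nkg7, Cd3g and S100a8 overlap.

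Genes of cytotoxic lymphocytes showed the lowest list median apart from the mitochondrial genome. NK cells and cytotoxic T cells kill through perforin and granzymes, secrete interferon gamma, and are driven by the T-box factors T-bet and Eomes. Of 24 tested members, 21 were lower, 17 had an unadjusted p under 0.05 and 14 did not overlap. The median was −1.21, and −1.14 without WT MET 2, when 22 were lower and 14 did not overlap. It was −1.47 in round 1 and −0.75 in round 2.

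Ifng, which encodes interferon gamma, stood at 0.545, 0.755 and 1.25 CPM in RH MET and 3.36, 3.25 and 4.08 CPM in WT MET. All 3 mutant libraries were below every wild-type one, and WT MET 2 was close to WT MET 1. The log2 fold change was −2.04 ± 0.437 (edgeR quasi-likelihood adjusted p = 0.738), and −2.10 ± 0.469 without WT MET 2. For Ifng with all libraries, DESeq2 gave an adjusted p of 0.012 and limma voom 0.0038, and edgeR without WT MET 2 gave 0.997. Tbx21, which encodes T-bet, stood at 0.744, 0.647 and 1.21 CPM against 2.42, 6.09 and 3.33 CPM (−2.08 ± 0.485, and −1.69 without WT MET 2), and Eomes at 0.694, 1.24 and 1.49 CPM against 3.60, 6.80 and 3.92 CPM (−1.93 ± 0.662, and −1.68 without WT MET 2). The chemokine gene Ccl5 stood at 3.42, 3.45 and 11.3 CPM against 18.8, 27.9 and 18.4 CPM (−1.79 ± 0.537, and −1.61 without WT MET 2). In each of these 4 genes RH MET 3 was the mutant library nearest to the wild type. Perforin (Prf1) was at 0.347 to 0.805 CPM against 1.83 to 3.04 CPM (−1.99 ± 0.596, and −1.84 without WT MET 2), granzyme A (Gzma) at 0.744 to 1.29 CPM against 2.36 to 5.85 CPM (−1.68 ± 0.534, and −1.85 without WT MET 2), and the activating receptor Klrk1 (NKG2D) at 3.52 to 6.12 CPM against 10.8 to 12.6 CPM (−1.24 ± 0.285, and −1.24 without WT MET 2). Granzyme B (Gzmb) overlapped, at 4.67 to 11.6 CPM against 7.73 to 22 CPM. Many of these genes stood at a few CPM, and 1 CPM was 9.859 reads in WT MET 2 and 24.84 at most, so their counting error is large.

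The T cell receptor complex and its signalling genes followed. Of 30 members, 27 were lower, 10 had an unadjusted p under 0.05 and 10 lay below WT MET in all libraries. Without WT MET 2, 6 had such a p and 11 lay below. The median was −0.83, and −0.63 without that library. Trbc1, a constant segment of the receptor's beta chain, stood at 1.24, 1.40 and 2.54 CPM in RH MET and 4.31, 10.8 and 5.75 CPM in WT MET (−1.81 ± 0.409, and −1.49 without WT MET 2). Zap70, the kinase that binds the activated receptor, stood at 0.793, 1.40 and 2.21 CPM against 5.25, 4.77 and 4.03 CPM (−1.62 ± 0.374, and −1.65 ± 0.406 without WT MET 2). The CD3 chains overlapped. Cd3g was at 0.545, 0.593 and 2.66 CPM in RH MET against 2.12, 3.25 and 2.74 CPM in WT MET, with RH MET 3 among the wild-type values. Bcl11b, a factor of T lineage commitment, did not overlap (0.270 to 1.05 CPM against 1.56 to 3.75 CPM, −1.96 ± 0.493, and −1.76 without WT MET 2). The 8 GIMAP genes, which encode GTPases of lymphocyte survival in 1 gene cluster, were all lower, with a median of −0.88, and −0.72 without WT MET 2. Gimap6 stood at 16.8, 16.5 and 27.1 CPM against 36.2, 41.1 and 36.4 CPM (−0.82 ± 0.173, and −0.82 without WT MET 2). Receptor segments, killer lectin receptors and GIMAP genes have close paralogs, and the sources used here do not give how shared reads were counted.

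Markers fixed for each lineage were summed as levels. The summed level of 12 T cell markers was 14.9 to 38.0 CPM in RH MET and 38.4 to 72.1 CPM in WT MET. RH MET 3 (38.0 CPM) and WT MET 1 (38.4 CPM) were thus nearly level. Of these markers Cd4 and Cd3e were highest in RH MET 3. Cd4 was at 2.78 CPM there against 0.708, 1.93 and 0.752 CPM in WT MET 1, 2 and 3. Cd3e was at 2.21 CPM there against 1.95, 1.93 and 1.83 CPM. The summed level of 8 NK cell markers was 18.2 to 22.3 CPM in RH MET and 41.3 to 47.7 CPM in WT MET. Gzmb was a large part of the sum, at 11.6, 8.96 and 4.67 CPM in RH MET 1, 2 and 3. Each of the other NK cell markers was highest in RH MET 3 among the mutant libraries, so the narrow RH MET range hides that spread. None of these T and NK cell markers was at 0 in all 6 libraries, and 5 B cell markers overlapped (7.17 to 23.4 against 16.4 to 46.7 CPM). In bulk samples fewer cells of a type and less RNA per cell cannot be told apart. Cells had been sorted as lineage-negative, and which cells gave these transcripts was not tested. Without drug, RH VEH against WT VEH gave list medians of −0.19 for cytotoxic genes, 0.09 for the T cell receptor complex and 0.08 for GIMAP genes. Without RH VEH 2 they were 0.04, 0.23 and 0.20. A test of the difference between the genotype effects under metformin and vehicle called 0 of 15003 genes (edgeR quasi-likelihood, 0%), with 932 (6.21%) at an unadjusted p under 0.05. Among the genes above that unadjusted interaction p was 0.00628 for Ifng, 0.00632 for Klrk1, 0.00689 for Zap70, 0.00662 for Ier2, 0.0283 for Junb and 0.298 for Nr4a1. The edgeR adjusted p was 0.648 for Ifng and Ier2. Without RH VEH 2 the unadjusted values were 0.000884, 0.0015, 0.0067, 0.0112, 0.0337 and 0.0387 in the same order. Without both RH VEH 2 and WT MET 2 they were 0.000532, 0.00136, 0.00589, 0.0167, 0.0457 and 0.0625. For Slc15a2 the unadjusted edgeR interaction p was 0.0356, 0.017 without RH VEH 2 and 0.0381 without both. These genes had a small p under metformin, and that contrast is part of the interaction, so their selection in part fixes these values. Other genes described above had a larger unadjusted edgeR interaction p. It was 0.114 for Eomes, 0.149 for Gzma, 0.211 for Prf1 and 0.738 for Dusp5. DESeq2 called 7 genes in the interaction test and limma voom 1946.

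**Figure D2:**
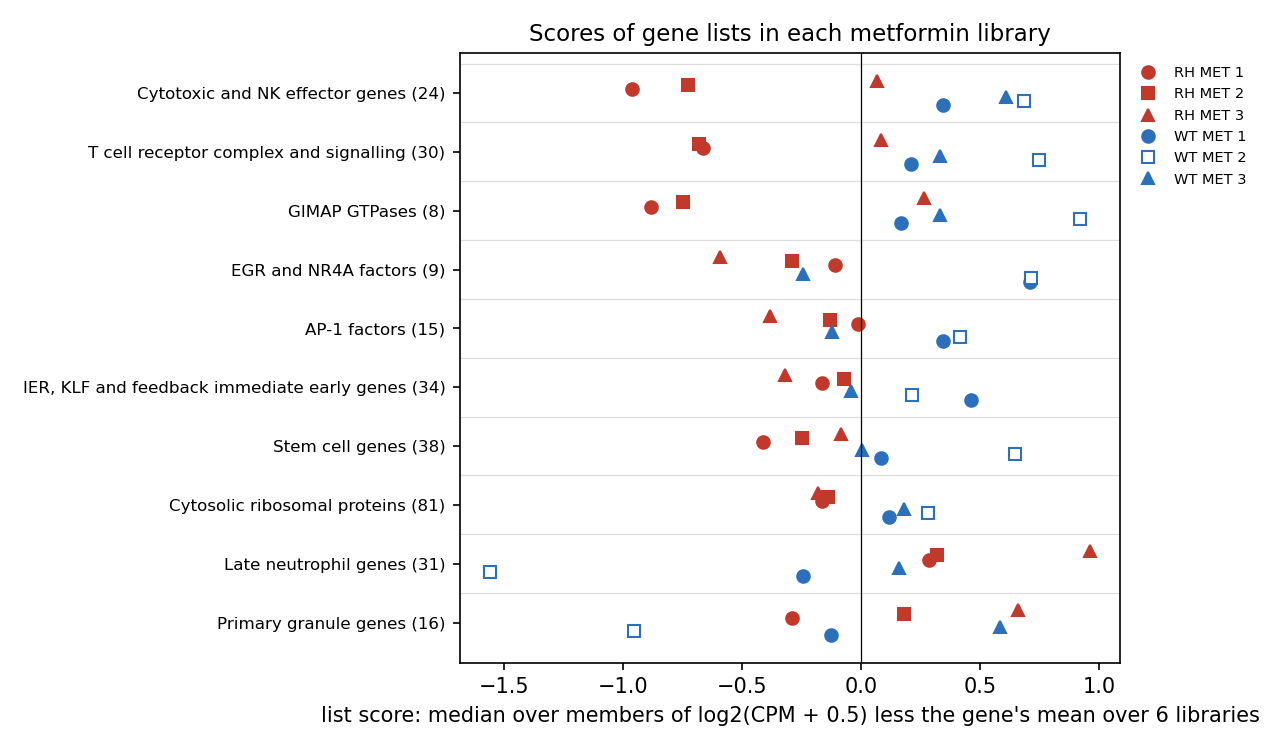
Scores of 10 gene lists (number of tested members in brackets) in each metformin library, where a score is the median over members of log2(CPM + 0.5) less the gene's mean over the 6 libraries; RH MET in red, WT MET in blue, WT MET 2 as an open square. Lymphoid scores separate RH MET 1 and 2 from WT MET with RH MET 3 between or close by, and the late neutrophil score is lowest in WT MET 2.

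Late neutrophil genes were higher in RH MET. They encode the secondary and tertiary granule proteins, receptors and enzymes of maturing neutrophils. All 31 tested members lay above 0, with a median log2 fold change of 1.06, 7 with an unadjusted p under 0.05 and 13 with no overlap. Without WT MET 2 all 31 were still higher and 13 did not overlap, but the median was 0.69 and 3 had such a p. Of all genes, 2.19% were higher at such a p and 7.97% lay above WT MET in all libraries. Without WT MET 2 these shares were 1.1% and 11.3%. Ltf, the lactoferrin of secondary granules, stood at 445, 455 and 565 CPM in RH MET and 247, 91.5 and 300.0 CPM in WT MET (1.28 ± 0.707, and 0.93 ± 0.712 without WT MET 2). Retnlg, a resistin-like secreted protein, stood at 67.8, 68.5 and 130 CPM against 50.1, 37.7 and 66.6 CPM (0.92 ± 0.342, and 0.68 without WT MET 2). Mmp8, the neutrophil collagenase, stood at 30.4, 29.5 and 61.0 CPM against 16.7, 6.39 and 24.6 CPM (1.50 ± 0.726, and 1.10 without WT MET 2). In all 3 genes WT MET 2 was the lowest library and RH MET 3 the highest, and round 2 gave a higher list median (1.43) than round 1 (0.59). Cxcr2, the chemokine receptor of mature neutrophils, overlapped at 10.2 to 18.6 CPM against 2.23 to 10.5 CPM (1.43 ± 0.574, and 1.05 without WT MET 2). S100a8, a cytosolic calprotectin subunit, overlapped as well, at 536 to 819 CPM against 125 to 691 CPM, with log2 fold changes of 0.97 and, without WT MET 2, 0.57. The summed level of 8 neutrophil markers was 2044 to 3168 CPM in RH MET and 522 to 2253 CPM in WT MET. Without drug all 31 members were lower in RH VEH and the median was −0.67, but without RH VEH 2 there were 27 lower and 4 higher at a median of −0.28.

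Genes of the preceding stage depended on WT MET 2. The primary granule genes, switched on in promyelocytes, had a median of 0.30 with 13 of 16 higher, but −0.00 with 8 higher and 8 lower once WT MET 2 was left out. Elane, neutrophil elastase, stood at 252, 358 and 493 CPM in RH MET and 295, 97.1 and 457 CPM in WT MET, so only WT MET 2 lay apart. Monocyte genes had a median of 0.26, and 0.02 without WT MET 2. Dendritic cell genes were lower with and without WT MET 2, 20 of 24 at a median of −0.30 and 21 of 24 at −0.32. Cd7, an immunoglobulin-family receptor also found on T and NK cells, was at 6.15 to 12.2 CPM against 14.4 to 15.2 CPM (−0.80 ± 0.283, and −0.84 without WT MET 2), and the interferon-inducible tetherin gene Bst2 at 37.4 to 46.5 CPM against 56.0 to 80.1 CPM (−0.63 ± 0.232, and −0.42 without WT MET 2).

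**Figure D3:**
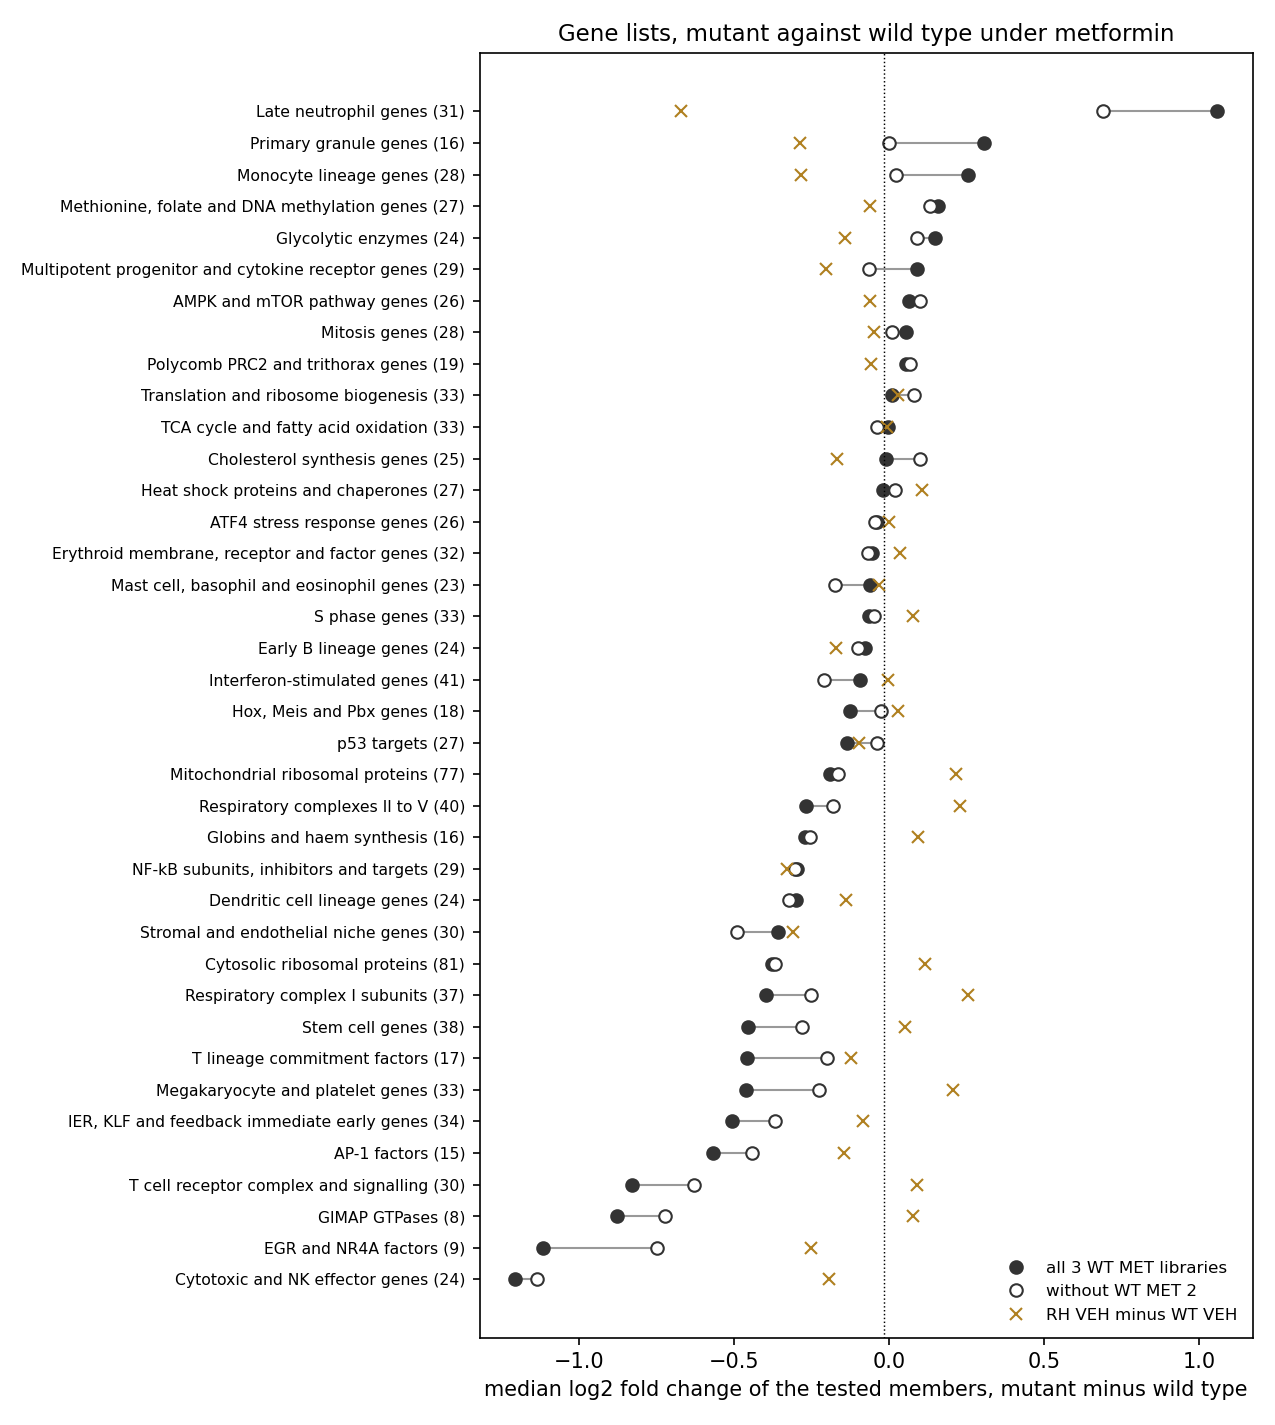
Median log2 fold change of RH MET over WT MET in 38 gene lists with all libraries (filled) and without WT MET 2 (open), and of RH VEH over WT VEH (crosses, RH VEH 2 included); the dotted line is the median of all genes tested, and the mitochondrial genome and the SLC15 family are left out. Late neutrophil genes lie highest and cytotoxic genes lowest with and without WT MET 2, and primary granule and monocyte genes move to near 0 without it.

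Stem cell genes were lower in RH MET, 33 of 38, with 10 at an unadjusted p under 0.05 and 13 without overlap. Their median was −0.46, and −0.28 without WT MET 2, which held the highest score (0.65 against 0.00 and 0.09 in the other WT MET libraries and −0.41 to −0.09 in RH MET). Ctla2a, a cathepsin inhibitor enriched in stem cells, stood at 40.2, 38.3 and 51.1 CPM in RH MET and 86.9, 122 and 65.4 CPM in WT MET (−0.96 ± 0.208, and −0.80 ± 0.203 without WT MET 2). Myct1, an endothelial and stem cell membrane protein, stood at 11.2, 10.3 and 11.8 CPM against 22.6, 26.3 and 16.0 CPM (−0.96 ± 0.212, and −0.80 without WT MET 2). Hlf, a bZIP factor of stem cell quiescence, was at 8.08 to 9.55 CPM against 12.9 to 19.8 CPM (−0.75 ± 0.252, and −0.57 without WT MET 2), and Procr, the surface receptor EPCR used to sort stem cells, at 0.446 to 1.33 CPM against 1.61 to 4.06 CPM (−1.46 ± 0.496, and −1.11 without WT MET 2). In each of these 4 genes the groups did not overlap and WT MET 2 was the highest library. Under vehicle the list median was 0.05 with and without RH VEH 2. With RH VEH 2 included, Ctla2a was at −0.09 and Myct1 at −0.42 under vehicle.

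Megakaryocyte genes leaned on WT MET 2 more. Of 33, 30 were lower at a median of −0.46, and 25 at −0.23 without that library. At an unadjusted p under 0.05 there were 3, and 1 without it, where 3.59% and 1.88% of all genes were lower at such a p. Pf4, the platelet chemokine, stood at 175, 171 and 200.0 CPM in RH MET and 312, 553 and 207 CPM in WT MET (−0.93 ± 0.428, and −0.51 ± 0.365 without WT MET 2). The 4 megakaryocyte markers summed to 535 to 539 CPM in RH MET and 575 to 1548 CPM in WT MET. Erythroid membrane, receptor and factor genes were level (median −0.05), and 13 of 16 globin and haem synthesis genes were lower at a median of −0.27, and 14 at −0.25 without WT MET 2. The alpha globin gene Hba-a1, which has a near-identical copy, was at 1263 to 1972 CPM against 2215 to 3047 CPM (−0.83 ± 0.355, and −0.78 without WT MET 2). Stromal and endothelial genes had opposite medians in the rounds, −0.96 in round 1 and 0.37 in round 2, and −0.36 over both (−0.49 without WT MET 2).

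Most ribosomal and respiratory genes were slightly lower in RH MET. Of 81 genes of the cytosolic ribosome, 80 were lower, 16 had an unadjusted p under 0.05 and 50 did not overlap. The median was −0.38, and −0.37 without WT MET 2. Rps12 stood at 805, 872 and 956 CPM in RH MET and 1675, 1757 and 1400.0 CPM in WT MET (−0.94 ± 0.239, and −0.83 without WT MET 2). Ribosomal protein genes have many pseudogene copies, which makes their counts uncertain. Of 37 subunit genes of complex I, 35 were lower and 13 did not overlap, at a median of −0.40, and −0.25 without WT MET 2. At an unadjusted p under 0.05 there were 5, and 3 without that library. Ndufs4, an accessory subunit needed for assembly of the NADH-binding module, stood at 46.6, 41.0 and 50.8 CPM in RH MET and 63.6, 61.0 and 61.1 CPM in WT MET (−0.45 ± 0.160, and −0.44 without WT MET 2). Genes of complexes II to V had a median of −0.27, with 35 of 40 lower and 6 at such a p, and −0.18 with 38 lower and 2 at such a p without WT MET 2. Mitochondrial ribosome genes had a median of −0.19, with 63 of 77 lower, and −0.16 with 66 lower without it. The cytochrome oxidase subunit gene Cox6c was at 141 to 152 CPM against 202 to 224 CPM (−0.59 ± 0.208, and −0.52 without WT MET 2). Without drug the medians were 0.12 for the cytosolic ribosome, 0.26 for complex I, 0.23 for complexes II to V and 0.22 for the mitochondrial ribosome. Without RH VEH 2 they were 0.01, 0.14, 0.11 and 0.08 in the same order. The 12 tested genes of the mitochondrial genome itself had a median of −2.08, which was −0.45 without WT MET 2. mt-Atp6 was at 19.3 to 25.2 CPM in RH MET, 45.2 and 30.0 CPM in WT MET 1 and 3, and 3074 CPM in WT MET 2.

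Gene length moved with this comparison, which bears on lists of short genes. The 10721 protein-coding genes whose mean log2 CPM reached 1 were split by their deposited length into 5 classes of near equal size. The median log2 fold change was −0.20 in the class of shortest genes, −0.06, −0.01 and 0.05 in the next 3 and 0.13 in the class of longest genes. Of the shortest genes 24.45% were higher in RH MET, of the longest 71.5%. Spearman's rho across genes was 0.37, and 0.427 without WT MET 2. It was −0.28 for RH VEH against WT VEH, and −0.224 without RH VEH 2. Genes of a library share its preparation, so rho is a description with no test. In the shortest class all 3 RH MET libraries lay below all 3 WT MET libraries, and in the longest above them. Cytosolic ribosome genes had a median length of 1739 bases, complex I genes 1569 and genes of complexes II to V 1870, against 3803 for all genes tested. With the median of genes of like length subtracted (20 bins of length, chosen after seeing the data), the list median became −0.23 for the cytosolic ribosome. It became −0.21 for complex I, −0.08 for complexes II to V and −0.07 for the mitochondrial ribosome. Those of cytotoxic genes (−1.08), the EGR and NR4A genes (−1.05), the T cell receptor complex (−0.80), stem cell genes (−0.44) and late neutrophil genes (1.30) kept their sign. Late neutrophil and cytotoxic genes had median lengths of 1496 and 1506 bases, and the part of length in their differences was not tested. The part of library preparation or RNA quality in the length trend was not tested.

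**Figure D4:**
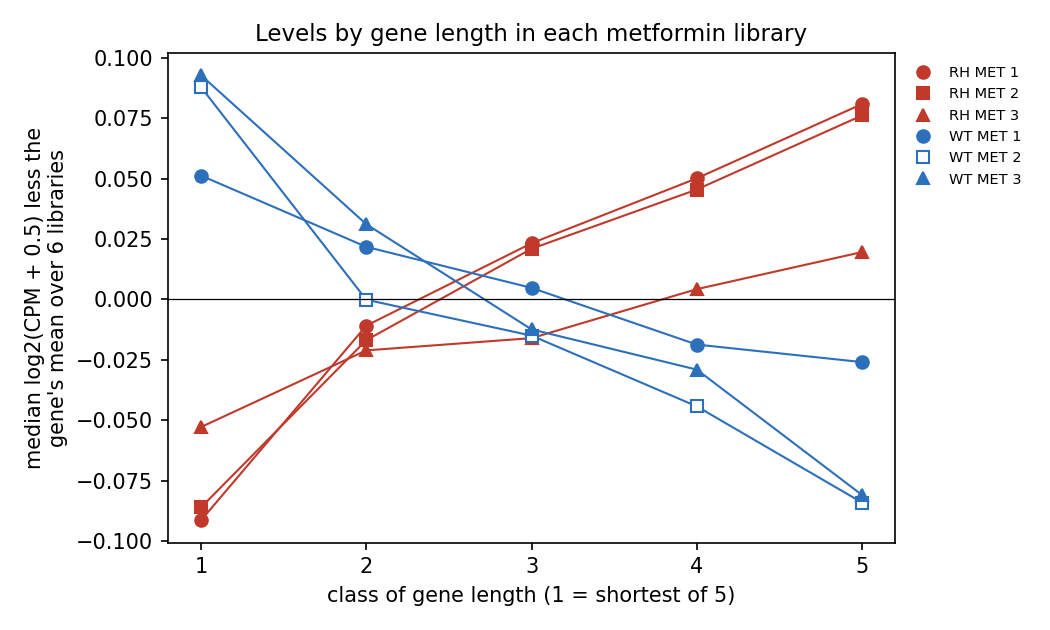
Median log2(CPM + 0.5) less each gene's mean over the 6 metformin libraries, by class of gene length (1 is the shortest of 5), with 1 line per library; RH MET in red, WT MET in blue, WT MET 2 as an open square. Lines of RH MET rise with length and those of WT MET fall, crossing near class 3.

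Besides Slc15a2, 11 higher genes met the rule of smallest p without overlap. Dnah8, an axonemal dynein heavy chain, stood at 59.6, 38.8 and 39.9 CPM in RH MET and 22.5, 16.4 and 17.3 CPM in WT MET (1.20 ± 0.208, edgeR quasi-likelihood adjusted p = 0.583, and 1.17 ± 0.242 without WT MET 2). For Dnah8 with all libraries, DESeq2 gave an adjusted p of 0.00058 and limma voom 0.0038, and edgeR without WT MET 2 gave 0.997. Under vehicle the Dnah8 difference was 0.15, and 0.23 without RH VEH 2. The inhibitory myeloid receptors Cd300lf and Siglece were at 7.59 to 12.2 against 2.65 to 5.53 CPM (1.60 ± 0.420, and 1.42 without WT MET 2) and at 3.87 to 4.83 against 1.32 to 2.85 CPM (1.42 ± 0.422, and 1.21 without WT MET 2). Slc7a7, a light chain of the y+L amino acid exchanger, was at 12.6 to 13.3 CPM against 6.49 to 7.73 CPM (0.88 ± 0.198, and 0.82 without WT MET 2). The remaining 7 were the guanine exchange factor Dock5, the scaffold Mpp7, the chondroitin enzyme Chpf2, Tmem245, the glucokinase Adpgk, the guanine deaminase Gda and the coagulation inhibitor Tfpi, with log2 fold changes of 0.60 to 0.84, and of 0.54 to 0.80 without WT MET 2. Under vehicle, with RH VEH 2 included, these 7 lay between −0.29 (Tmem245) and 0.53 (Tfpi).

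Complex I aside, lists tied to metformin and to DNA methylation had small medians. Genes of the AMPK and mTOR pathways had a median of 0.07, with 15 of 26 higher, and 0.10 with 14 higher without WT MET 2. Mtor itself was at 55.1 to 65.0 CPM in RH MET and 38.3 to 47.1 CPM in WT MET (0.52 ± 0.179, and 0.46 ± 0.198 without WT MET 2), with no overlap. Methionine, folate and DNA methylation genes had 21 of 27 higher (against 47.95% of all genes) and a median of 0.16, and 0.13 without WT MET 2, again with 21 higher. At an unadjusted p under 0.05 there were 3, and 1 without that library, where 2.19% and 1.1% of all genes were higher at such a p. Of the 27 list members, Mtr, methionine synthase, was at 111 to 121 CPM against 82.9 to 93.8 CPM (0.37 ± 0.154, and 0.33 without WT MET 2). The maintenance methyltransferase gene Dnmt1, also in the list, was at 458 to 518 CPM against 341 to 444 CPM (0.31 ± 0.159, and 0.24 without WT MET 2). List medians lay between −0.14 and 0.15 for the ATF4 stress response, cholesterol synthesis, glycolysis, the TCA cycle and fatty acid oxidation, interferon-stimulated genes, S phase, mitosis, p53 targets, polycomb and trithorax genes, and Hox, Meis and Pbx genes. The interferon-stimulated list had a median of −0.09, and −0.21 without WT MET 2.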

How the data were processed

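The authors deposited raw, unnormalized read counts of 54532 mouse genes in 12 libraries. The tools were STAR 2.5 and HTSeq 0.6.1 and the build was mm10, per the submitters' processing notes. Strand and multi-mapping settings were not found in the sources used here. The authors' table also gives each gene a length in bases. Library numbers are those of its columns, of which 7 match a group but not 1 sample, and 2 columns of a smaller table matched no sample and were not used. Counts were tested with edgeR 4.0.16 (quasi-likelihood, robust, TMM, filterByExpr, group means plus round over 12 libraries, 7 residual degrees of freedom, R 4.3.3) and Benjamini-Hochberg adjustment over 15003 genes, with limma 3.58.1 and DESeq2 1.42.0 as alternatives. The biological coefficient of variation was 0.256. Each SE is the absolute log2 fold change divided by the square root of the quasi-likelihood F of its fit. It thus draws on the spread over all libraries in the fit, not on 3 libraries per group alone. Levels are TMM-normalised CPM.

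Genes named are those past the threshold, the 12 of smallest p per direction among genes at a mean log2 CPM of at least 1 with no overlap and 1 sign in each round and without WT MET 2, the members of smallest p of each of 40 lists, and markers of 9 cell types. Members, lists and rules were chosen with earlier results of these data known. Lists are described by counts and medians, with no test. Motifs were searched in RefSeq promoter windows (GRCm38.p6), where 10399 tested genes (10397 symbols, since some gene IDs share one) had a window. The vehicle values without RH VEH 2 were added after seeing the data.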

Additional observations from a re-analysis of the deposited data

How the results depend on the processing

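Counts of genes called under an adjusted p of 0.05 depended on the tool and the libraries. Called genes higher, then lower, in RH MET numbered 1 and 0 in the reported edgeR fit, 137 and 225 with no filter on low counts, 22 and 39 with DESeq2, and 290 and 484 with limma voom and quality weights. The 1 gene was lost (0 called) without the round term, with the 6 metformin libraries alone (with or without that term), in round 1 only and in round 2 only. Leaving out 1 library at a time gave 0 to 1 higher and 0 to 1 lower. Without WT MET 2, the counts were 43 and 92 with the metformin libraries alone, 0 and 4 with limma voom, and 18 and 13 with DESeq2, all 3 chosen after seeing the data. Genes called for the difference from the vehicle effect numbered 0 in the reported fit, 431 with no filter, 7 with DESeq2, 1946 with limma voom, 1 without both libraries rich in mitochondrial counts, 3 in round 1 only, 0 to 1 leaving out 1 library, and, without WT MET 2, 383 with limma voom and 1 with DESeq2. The cause of these differences was not tested. With the replicate number as a block, 1 gene was called higher and 0 lower. Deviations from the group mean correlated at 0.151, 0.0672 and 0.268 between same-numbered WT MET and RH MET libraries. Differently numbered pairs were not computed, so whether libraries of 1 number share an origin was not tested. All 672 alternative values of the 24 genes of smallest p kept their sign, which their selection in part fixes. So did all 348 of the 12 lists whose library scores did not overlap, of which 54 moved by over 1 SD. Picking lists by scores in these same libraries likewise fixes their sign in part. Depth limits genes at a few CPM, and WT MET 2 most.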
